A study of Homo sapiens with 6 samples.

Results

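The NF-kappa-B subunits and their feedback inhibitors were followed as 10 genes, 5 subunits (NFKB1, NFKB2, RELA, RELB and REL) and 5 inhibitors (NFKBIA, NFKBIB, NFKBIE, TNFAIP3 and BIRC3). They were chosen by name, because PRMT5 is known to methylate RELA on arginine, and with earlier results of these data known. All 10 were found by gene symbol among the 58825 genes measured. The data are RNA-seq libraries of NCI-H460, a human lung cancer line known as a large cell carcinoma and labelled as an adenocarcinoma line. All cells were infected with lentivirus, and the libraries form 2 groups of 3. NC-shRNA cells carried a control hairpin, given as directed against GFP, and PRMT5-shRNA cells carried a hairpin against PRMT5. Infected cells were selected with puromycin, several PRMT5 hairpins were designed, and which of them the sequenced cells carried is not given in the sources used here. Depth was 69606034, 70518401 and 62125927 counts for NC-shRNA, and 53531257, 69077084 and 56507279 counts for PRMT5-shRNA.

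NF-kappa-B is a family of dimeric transcription factors. RELA, RELB and REL carry transactivation domains, while NFKB1 and NFKB2 are made as precursors and processed to the DNA-binding subunits p50 and p52. In resting cells the dimers are held back by inhibitors of the I-kappa-B family, here NFKBIA, NFKBIB and NFKBIE, until the I-kappa-B kinase marks these for degradation. TNFAIP3 (A20) is a ubiquitin-editing enzyme that restrains signalling upstream of the kinase. BIRC3 (cIAP2) is a ubiquitin ligase that promotes canonical signalling from TNF receptors and restrains the non-canonical pathway through its kinase NIK. Several of these genes are themselves transcribed by NF-kappa-B, which closes feedback loops. RNA levels say nothing about the methylation, the location or the activity of the proteins, which were not measured in these libraries.

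The stretches upstream of the annotated starts are shown because many of these genes are known targets of their own pathway. Upstream windows of 250 bases were taken from RefSeq on GRCh38.p14 and were found for 8 of the 10 genes (not RELB or NFKBIE), with 13 windows in all since some genes have several starts. The motif GGGNNTTTCC, a form of the kappa-B site, was searched on both strands and found in 8 of the 13 windows, which belong to 7 genes. It was found in 1.73% of all 35116 windows of this length. The same search with 2 wider forms that overlap it, GGGNNNTTCC and the kappa-B consensus, matched 8 of the 13 windows each. These windows belong to 7 genes for each form, and of all windows 5.67% and 5.21% matched. The motif was chosen with matches in these genes known. Windows of 30 bases around the matches follow, 5′ to 3′ on the strand of the gene, with the matched bases in capitals. They lie at chr4:102501300-102501329 for NFKB1, chr10:102394490-102394519 and chr10:102395674-102395703 for NFKB2, chr2:60881518-60881547 for REL, chr14:35404811-35404840 (minus strand) for NFKBIA, chr19:38899931-38899960 for NFKBIB, chr6:137867182-137867211 and chr6:137867194-137867223 for TNFAIP3, and chr11:102317275-102317304 for BIRC3.
NFKB1: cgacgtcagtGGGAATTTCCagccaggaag
NFKB2, start 2: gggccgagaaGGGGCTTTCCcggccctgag
NFKB2, start 3: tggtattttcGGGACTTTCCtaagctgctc
REL: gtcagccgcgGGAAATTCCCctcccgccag
NFKBIA: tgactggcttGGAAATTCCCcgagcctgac
NFKBIB, start 2: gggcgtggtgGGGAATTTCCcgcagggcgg
TNFAIP3, upstream match: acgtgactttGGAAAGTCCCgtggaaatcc
TNFAIP3, downstream match: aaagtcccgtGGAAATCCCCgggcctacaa
BIRC3: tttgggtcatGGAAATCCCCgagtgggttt

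The match began 49 bases before the start of NFKB1, on the strand of the gene. On the other strand it began 46 bases before the start of REL, 81 before that of NFKBIA and 199 before that of BIRC3, and TNFAIP3 had a pair of matches there, 67 and 55 bases before its start. The 2 windows of RELA and the window of PRMT5 held none of the 3 forms, which says only that these letters are not in those windows. These distances are from RefSeq starts, while the gene positions given with each level are GENCODE spans, which can begin earlier, so the matches of NFKB2, REL, NFKBIB and TNFAIP3 lie inside those spans. A match is a description of the sequence and not a measured binding site.

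**Figure D1:**
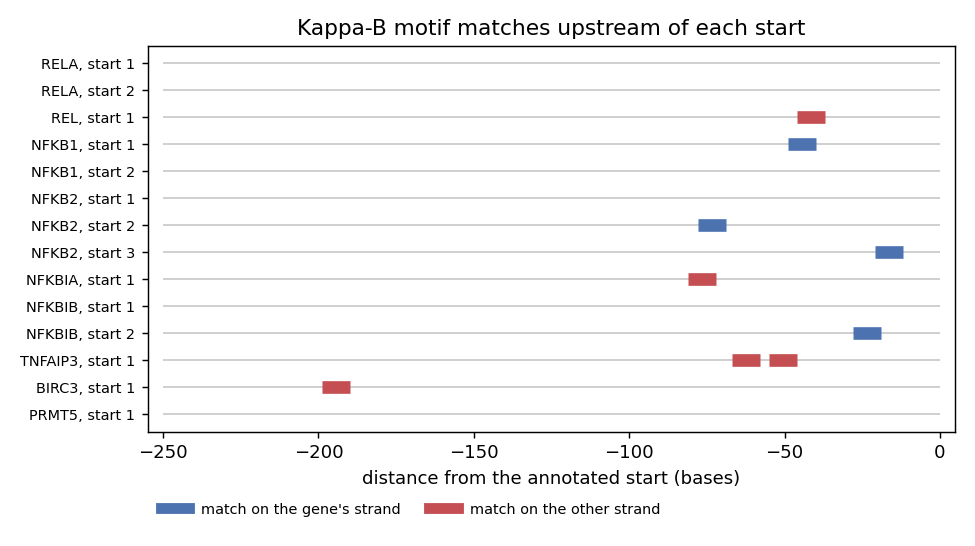
Position of GGGNNTTTCC matches in the 250 bases upstream of each RefSeq start, with distance from the start in bases on the x axis and 1 line per start. Blue blocks mark matches on the strand of the gene and red blocks matches on the other strand, and all but the BIRC3 match begin within 81 bases of the start.

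PRMT5, the target of the hairpin, was at 143, 127 and 128 CPM in NC-shRNA and at 45.8, 45.6 and 38.3 CPM in PRMT5-shRNA libraries. CPM is the count of a gene scaled to the library's total, with edgeR's TMM factors. The groups did not overlap, and PRMT5 fell by 1.62 on the log2 scale (edgeR adjusted p = 0.0063). With a replicate block it was also at -1.62 (edgeR adjusted p = 0.144), although the replicate numbers did not pair the libraries. The libraries therefore carry the knockdown that their labels name. Over all 20295 genes that passed edgeR's filter on low counts, 10 were higher and 4 lower at an adjusted p under 0.05, which is 0.0690% of the genes tested. All 10 NF-kappa-B genes passed this filter, and 0 of 10 passed the adjusted threshold in edgeR's quasi-likelihood test. The same count was 0 of 10 in DESeq2 and in limma. At an unadjusted p under 0.05 edgeR gave 2 of 10 members, REL and TNFAIP3, both higher, where the share of all genes was 6.54% higher and 6.29% lower. That count rests on single libraries. It was 0 without NC-shRNA replicate 2, without PRMT5-shRNA replicate 2 or without PRMT5-shRNA replicate 3, and 1 without NC-shRNA replicate 3 or without PRMT5-shRNA replicate 1. The study speaks of biological replicates and the labels do not say whether these were separate cultures, so the p-values measure only the spread between these libraries. With 3 libraries against 3, an exact two-sided permutation test cannot give a p under 0.10. In bulk RNA, fewer cells with a transcript and less transcript per cell cannot be told apart.

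NFKB1, the p105 precursor of p50, lies on the plus strand at chr4:102501329-102617302. It was at 70.8, 75.3 and 76.0 CPM in NC-shRNA and at 78.1, 80.1 and 77.4 CPM in PRMT5-shRNA libraries. Each PRMT5-shRNA library was above each NC-shRNA library by a small margin. The log2 fold change was 0.09, with a 95% interval from -0.05 to 0.23 (edgeR adjusted p = 0.587), and the exact permutation p was 0.10. Without NC-shRNA replicate 1 the log2 fold change was 0.05. NFKB1 and TNFAIP3 were the 2 of 10 members whose libraries did not overlap between the groups, both higher, and 0 were lower. Over all genes tested, 11.0% did not overlap and were higher, and 10.7% did not overlap and were lower. Without NC-shRNA replicate 1, the member count was 4, as REL and NFKBIB then separated too. It was 3, with REL added, with library totals, in the limma fits on FPKM and without PRMT5-shRNA replicate 1. The shares of all genes given here belong to all 6 libraries with TMM and not to these settings. With a library left out groups separate more easily, so these counts cannot be read against those shares.

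NFKB2, the p100 precursor of p52 in the non-canonical pathway, lies at chr10:102394110-102402529. Its level was 93.6, 95.9 and 91.5 CPM in NC-shRNA and 94.9, 91.9 and 103 CPM in PRMT5-shRNA libraries. The groups overlapped, with PRMT5-shRNA replicate 3 above the others. Its difference in log2 was 0.04 (95% interval -0.11 to 0.20, edgeR adjusted p = 0.813). It was -0.0044 without PRMT5-shRNA replicate 3 and 0.08 without PRMT5-shRNA replicate 2, so the direction rests on 1 library.

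RELA, the p65 subunit and a known substrate of PRMT5, lies on the minus strand at chr11:65653596-65663094. Its level was 66.2, 63.7 and 33.3 CPM in NC-shRNA and 46.7, 51.6 and 64.3 CPM in PRMT5-shRNA libraries. NC-shRNA replicate 3 was the lowest of the 6 libraries, PRMT5-shRNA replicates 1 and 2 lay between it and the other NC-shRNA libraries, and PRMT5-shRNA replicate 3 was just above NC-shRNA replicate 2, so the groups overlapped. The means were 54.4 ± 18.4 CPM (SD, n = 3) and 54.2 ± 9.11 CPM (SD, n = 3). The log2 fold change was -0.01, with a 95% interval from -0.63 to 0.62 (edgeR adjusted p = 0.995). These libraries thus leave room for a fold between 0.647 and 1.53 in RELA transcript. Without NC-shRNA replicate 3 the log2 fold change was -0.26 (edgeR adjusted p = 0.491), and without NC-shRNA replicate 1 it was 0.16 (edgeR adjusted p = 0.902).

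The spread of RELA was wide. Among the 9963 genes with a mean of at least 10 CPM, 93.7% had a smaller pooled SD of log2 CPM within the groups than RELA. In NC-shRNA replicate 3 RELA was 0.96 log2 units under the mean of the other NC-shRNA libraries, and 0.933% of these genes were as low there. RELA, RELB, NFKB2, NFKBIA, NFKBIB and NFKBIE, 6 of 10 members, had their lowest NC-shRNA value in replicate 3, against 33.3% of all genes tested. The part of this library in the comparisons was examined by leaving it out.

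The 5 genes most like RELA over the 6 libraries were C11orf98, MRPS27, ZNRF1, MED19 and MSANTD2. Likeness was the root mean square difference of centred log2 CPM, which was 0.09 for C11orf98 and 0.14 for MSANTD2. MRPS27, a mitochondrial ribosomal protein, was at 185, 165 and 82.7 CPM in NC-shRNA and at 137, 153 and 153 CPM in PRMT5-shRNA libraries. MED19, a Mediator subunit, was at 20.2, 17.3 and 11.2 CPM in NC-shRNA and at 16.5, 14.9 and 18.7 CPM in PRMT5-shRNA libraries. These genes were picked for this likeness, which includes the low value in NC-shRNA replicate 3.

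RELB, the transactivating partner of p52, lies at chr19:45001430-45038198. It was at 7.18, 6.43 and 4.81 CPM in NC-shRNA and at 5.37, 6.51 and 4.89 CPM in PRMT5-shRNA libraries. The groups overlapped, and the lowest value was again that of NC-shRNA replicate 3. PRMT5-shRNA differed from NC-shRNA by -0.14 in log2 (95% interval -0.60 to 0.32, edgeR adjusted p = 0.808). This value rests on single libraries, as it was -0.01 without NC-shRNA replicate 1, -0.29 without NC-shRNA replicate 3, -0.26 without PRMT5-shRNA replicate 2 and -0.05 without PRMT5-shRNA replicate 3.

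REL, the c-Rel subunit best known from lymphocytes, lies at chr2:60881521-60931610. It was at 12.3, 8.66 and 10.5 CPM in NC-shRNA and at 11.7, 19.4 and 21.6 CPM in PRMT5-shRNA libraries. PRMT5-shRNA replicates 2 and 3 were above every NC-shRNA library, while PRMT5-shRNA replicate 1 lay among them, so the groups overlapped on this scale. With library totals in place of TMM, and by FPKM, PRMT5-shRNA replicate 1 was just above the highest NC-shRNA library (0.78 against 0.76 FPKM), and the groups did not overlap. The mean was 10.5 ± 1.80 CPM (SD, n = 3) against 17.6 ± 5.18 CPM (SD, n = 3). The log2 fold change of REL was 0.75 (95% interval 0.17 to 1.33, a fold between 1.12 and 2.51), the largest among the 10 members in edgeR. On log2(FPKM + 1), which understates low genes, it was 0.37, under the 0.40 of NFKBIB. Its unadjusted edgeR p was 0.0188 and its edgeR adjusted p was 0.303. In DESeq2 the adjusted p of REL was 0.0711, and over all alternatives it ranged from 0.0711 to 0.566. The exact two-sided permutation p was 0.20. A pseudogene, RNU4-51P, and a non-coding gene overlap REL on its own strand, and how reads were divided between them is not given in the sources used here.

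**Figure D2:**
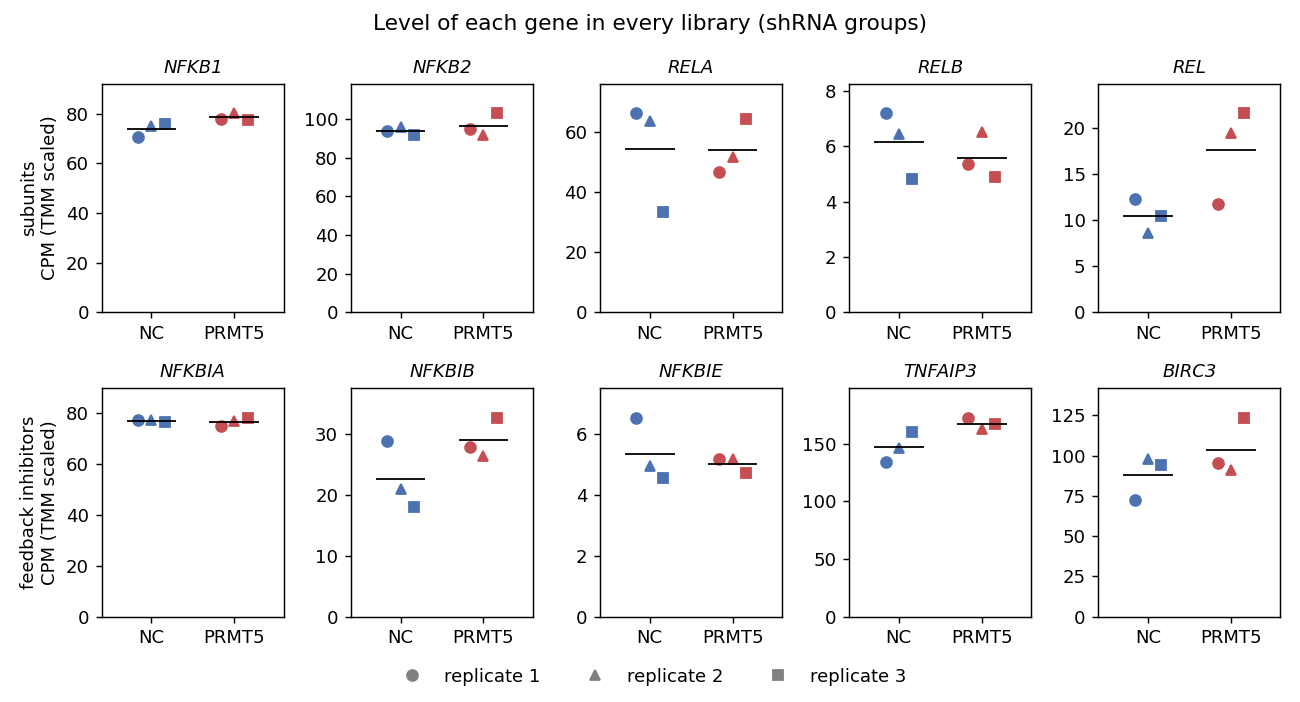
Level of each gene in CPM (TMM scaled, axes from 0) in every library, with 3 NC-shRNA libraries in blue, 3 PRMT5-shRNA libraries in red, symbols for the replicate number and a line at the group mean. NFKBIA varies least, RELA has 1 low NC-shRNA library at 33.3 CPM, and REL is above all NC-shRNA libraries in 2 of 3 PRMT5-shRNA libraries.

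Among the inhibitors, NFKBIA, which encodes I-kappa-B alpha and is the classical feedback target, lies on the minus strand at chr14:35401511-35404749. It was at 77.1, 77.4 and 76.5 CPM in NC-shRNA and at 74.8, 76.8 and 78.2 CPM in PRMT5-shRNA libraries. The 6 values were nearly level and the groups overlapped. Among genes with a mean of at least 10 CPM, 0.652% had a smaller pooled SD of log2 CPM. The log2 fold change was -0.01, and its 95% interval from -0.14 to 0.12 corresponds to folds between 0.910 and 1.09 (edgeR adjusted p = 0.970). This interval was much narrower than that of RELA, so the same near-zero estimate carries a tighter bound for NFKBIA. The direction of RELA and NFKBIA flipped to above 0 with library totals in place of TMM and on the FPKM scale.

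NFKBIB, which encodes I-kappa-B beta, lies at chr19:38899700-38908893. It was at 29.0, 20.9 and 18.0 CPM in NC-shRNA and at 27.9, 26.4 and 32.7 CPM in PRMT5-shRNA libraries. NC-shRNA replicate 1 was above PRMT5-shRNA replicates 1 and 2 and below PRMT5-shRNA replicate 3, so the groups overlapped. On the log2 scale the difference was 0.36 (95% interval -0.08 to 0.80, edgeR adjusted p = 0.460). Without NC-shRNA replicate 1 it was 0.58 (edgeR adjusted p = 0.354), and without NC-shRNA replicate 3 it was 0.22 (edgeR adjusted p = 0.647). SIRT2 overlaps NFKBIB on the other strand. The library kit keeps the strand, but whether counting used it is not given in the sources used here, so values of genes with a partner on the other strand are uncertain.

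NFKBIE, which encodes I-kappa-B epsilon, lies on the minus strand at chr6:44258166-44265788. It was at 6.55, 4.98 and 4.55 CPM in NC-shRNA and at 5.19, 5.19 and 4.73 CPM in PRMT5-shRNA libraries. All PRMT5-shRNA values lay within the NC-shRNA range. In log2 the groups differed by -0.09 (95% interval -0.50 to 0.31, edgeR adjusted p = 0.861), and by 0.08 without NC-shRNA replicate 1.

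TNFAIP3 lies at chr6:137867188-137883312. It was at 134, 147 and 161 CPM in NC-shRNA and at 173, 163 and 167 CPM in PRMT5-shRNA libraries. The groups did not overlap, although NC-shRNA replicate 3 came within a few CPM of the lowest PRMT5-shRNA library. The mean was 147 ± 13.2 CPM (SD, n = 3) against 168 ± 4.98 CPM (SD, n = 3). Its log2 fold change was 0.19, with a 95% interval from 0.01 to 0.37, and 0.12 without NC-shRNA replicate 1. Its unadjusted edgeR p was 0.0449, its edgeR adjusted p was 0.377, and the exact permutation p was 0.10. An antisense gene, AL357060.1, overlaps it on the other strand, as AP001362.2 does RELA and PRMT5-AS1 does PRMT5.

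BIRC3 lies at chr11:102317450-102339403. It was at 72.7, 97.9 and 94.0 CPM in NC-shRNA and at 95.2, 91.0 and 124 CPM in PRMT5-shRNA libraries. NC-shRNA replicate 1 was the lowest and PRMT5-shRNA replicate 3 the highest, with the other 4 libraries close together. The groups differed by 0.23 in log2 (95% interval -0.14 to 0.59, edgeR adjusted p = 0.583). The difference was 0.08 without PRMT5-shRNA replicate 3 and 0.11 without NC-shRNA replicate 1.

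Over the 10 members, 6 had a log2 fold change above 0 and 4 below 0, with a median of 0.06, where 51.2% of all genes tested were above 0. The count above 0 was 8 with library totals and in the limma fits on FPKM, and 5 to 8 with 1 library left out. The 51.2% belongs to TMM with all libraries, and library totals moved the median of all genes tested from 0.01 to 0.06. The median of all genes tested was 0.01, and the median size of their log2 fold change, without sign, was 0.19.

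**Figure D3:**
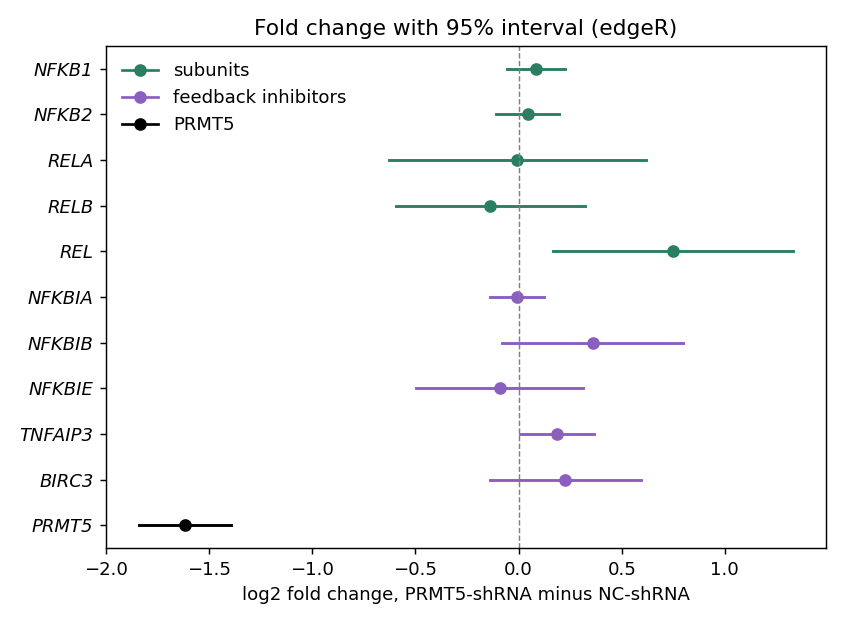
Log2 fold change of PRMT5-shRNA against NC-shRNA from edgeR (x axis) with its 95% interval, for 5 subunits in green, 5 inhibitors in purple and PRMT5 in black. The intervals of REL and TNFAIP3 lie above 0, those of the other 8 members hold 0, and PRMT5 is at -1.62.

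Levels of different genes were compared on the FPKM scale (fragments per kilobase, scaled to the library's depth), which accounts for length. In NC-shRNA cells NFKBIA was at 27.2 ± 0.509 FPKM (SD, n = 3) and TNFAIP3 at 24.6 ± 2.74 FPKM (SD, n = 3), and their ranges overlapped. NFKB2 followed at 16.6 ± 0.406 FPKM (SD, n = 3), apart from its neighbours. BIRC3 (9.85), NFKB1 (9.75), RELA (8.30) and NFKBIB (8.12 FPKM on average) formed a run in which every neighbour overlapped the next. NFKBIE and RELB, at 1.73 and 1.70 FPKM, also overlapped. REL was lowest at 0.663 ± 0.106 FPKM (SD, n = 3), below RELB in every NC-shRNA library.

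In PRMT5-shRNA cells TNFAIP3 (29.1 ± 0.991 FPKM, SD, n = 3) stood before NFKBIA (28.2 ± 0.718 FPKM, SD, n = 3), with overlapping ranges, so this pair is not ordered beyond its spread in either group. NFKBIB, at 10.9 FPKM, stood between BIRC3 (12.0 FPKM) and NFKB1 (10.8 FPKM), again with overlap. REL remained lowest by its mean, at 1.17 ± 0.344 FPKM (SD, n = 3), and its range reached that of RELB. With CPM per kilobase of annotated exon length in place of FPKM, 8 of 10 members kept their rank in each group.

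**Figure D4:**
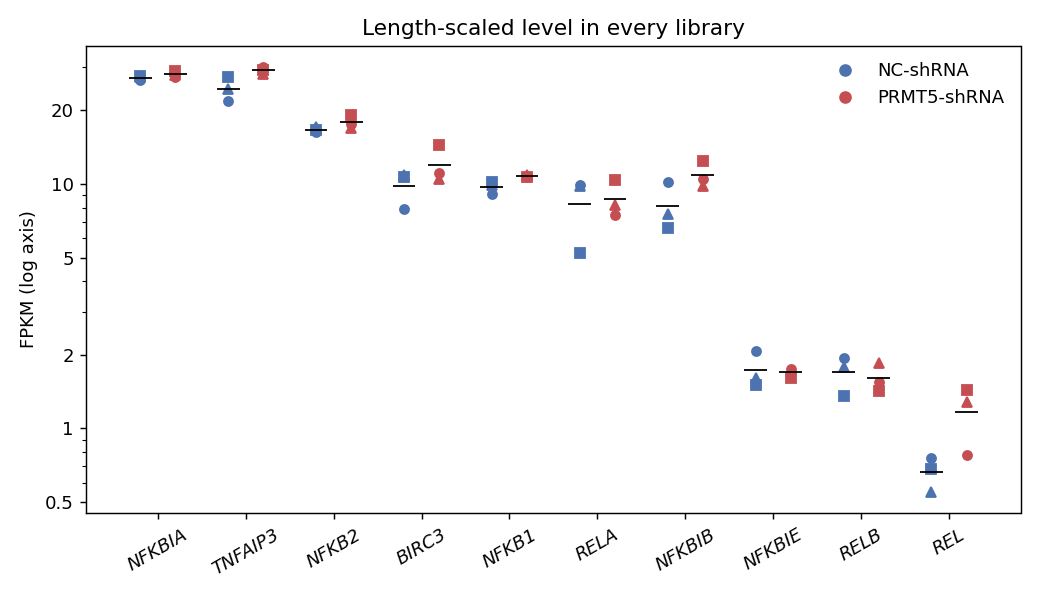
FPKM of each gene in every library on a log axis, with genes ordered by their NC-shRNA mean, NC-shRNA in blue, PRMT5-shRNA in red, the replicate number as the symbol and lines at the means. NFKBIA and TNFAIP3 are highest and REL is lowest in both groups, from 0.663 FPKM in NC-shRNA to 1.17 FPKM in PRMT5-shRNA cells on average.

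NFKB2 made up the largest part of the subunit transcript. On the FPKM scale it was 42.8%, 43.6% and 48.7% of the summed subunits in NC-shRNA and 46.2%, 43.2% and 44.5% in PRMT5-shRNA libraries. RELA made up 26.1%, 25.0% and 15.3% in NC-shRNA and 19.6%, 20.9% and 24.0% in PRMT5-shRNA libraries. The shares of NFKB2 and of RELA overlapped between the groups. That of REL was 2.0%, 1.4% and 2.0% in NC-shRNA and 2.05%, 3.27% and 3.34% in PRMT5-shRNA libraries, without overlap on this scale by a small margin of PRMT5-shRNA replicate 1.

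The summed FPKM of the 5 subunits was 38.0, 39.1 and 34.1 in NC-shRNA and 38.1, 39.1 and 43.1 in PRMT5-shRNA libraries. The summed FPKM of the 5 inhibitors was 68.7, 71.9 and 73.8 in NC-shRNA and 80.9, 78.2 and 86.7 in PRMT5-shRNA libraries. In the inhibitor sum 3 of 3 PRMT5-shRNA libraries were above every NC-shRNA library, on the FPKM scale and as CPM per kilobase. In the subunit sum it was 2 of 3 on the FPKM scale, PRMT5-shRNA replicate 2 by a very small margin, and 1 of 3 as CPM per kilobase. The sum of NFKBIA, NFKBIB and NFKBIE alone was 38.9, 36.5 and 35.7 FPKM in NC-shRNA and 39.8, 39.7 and 42.9 FPKM in PRMT5-shRNA libraries. As CPM per kilobase 1 of 3 PRMT5-shRNA libraries was above every NC-shRNA library in that smaller sum, against 3 of 3 by FPKM. These sums are descriptions and were not tested. Per unit of subunit FPKM, I-kappa-B FPKM was 1.02, 0.934 and 1.05 in NC-shRNA and 1.04, 1.01 and 0.997 in PRMT5-shRNA libraries, with overlap.

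The rest of the pathway was read from 6 lists of 168 genes, of which 155 were tested. At an adjusted p under 0.05 edgeR gave 0 of 155, and at an unadjusted p under 0.05 it gave 9 higher (5.81%) and 7 lower (4.52%), near the shares of all genes. DESeq2 called 4 of the 147 to which it gave an adjusted p (BCL3, RNF11, PLAU and XIAP), a share of 2.72% that is near the 2.59% it called of all 15942 genes with such a p. Without NC-shRNA replicate 3 edgeR called 1 of 158, XIAP, and 0.117% of all genes tested. The median log2 fold change over the 155 genes was 0.02. The higher count was 20 with library totals in place of TMM and 5 without NC-shRNA replicate 1, while the lower count was 4 with library totals, without NC-shRNA replicate 2 or without NC-shRNA replicate 3. Library totals also moved the median log2 fold change of all genes tested from 0.01 to 0.06. The shares of all genes at an unadjusted p belong to TMM with all libraries, so these counts cannot be read against them. Of the 155 genes, 19 were higher and 11 lower without overlap, where 11.0% and 10.7% of all genes tested were. The genes named below were each list's highest by FPKM or were picked for an unadjusted edgeR p under 0.05 without overlap. For those picked, the separation of the groups was set by that choice.

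Of the 11 ligands 6 were tested and of the 16 receptors 15, and 0 of either passed an unadjusted p of 0.05. Their medians were 0.12 and 0.06 on the log2 scale, and both rest on single libraries. The ligand median was 0.37 without PRMT5-shRNA replicate 2 and -0.01 without PRMT5-shRNA replicate 1, and the receptor median was -0.02 without PRMT5-shRNA replicate 3. On log2(FPKM + 0.1) the receptor median was -0.01. The medians of the other 4 lists lay between -0.04 and 0.10 with 1 library left out. IL18, the ligand with the highest FPKM, was at 36.7, 32.5 and 28.3 CPM in NC-shRNA and at 37.0, 37.0 and 28.8 CPM in PRMT5-shRNA libraries. TNFRSF1A, the main receptor for TNF and the receptor with the highest FPKM, was at 130, 145 and 148 CPM against 103, 159 and 109 CPM. Both overlapped between the groups.

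All 32 adaptors and kinases, which carry the signal from the receptors to the I-kappa-B kinase, were tested, and their median was 0.01 on the log2 scale. UBE2N, the ubiquitin-conjugating enzyme that makes lysine-linked chains with TRAF6, was at 64.0, 63.9 and 62.3 CPM in NC-shRNA and at 56.6, 51.4 and 57.6 CPM in PRMT5-shRNA libraries. It did not overlap, with a difference of -0.20 in log2 (edgeR adjusted p = 0.312). IRAK2, a kinase of the interleukin-1 and Toll-like receptors, was at 5.76, 7.04 and 5.81 CPM against 7.11, 8.59 and 8.19 CPM. It did not overlap either, with a difference of 0.36 in log2 (edgeR adjusted p = 0.364). IRAK1, the list's gene with the highest FPKM, differed by -0.11 in log2 (edgeR adjusted p = 0.582), and by -0.04 without NC-shRNA replicate 1.

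All 23 other inhibitors and deubiquitinases were tested, with a median of -0.01, 2 higher and 2 lower at an unadjusted p under 0.05. BCL3, an atypical I-kappa-B protein that binds p50 and p52 in the nucleus, was at 17.0, 17.1 and 17.1 CPM in NC-shRNA and at 24.5, 23.0 and 21.7 CPM in PRMT5-shRNA libraries. Its groups were well apart for their spread, with a difference of 0.44 in log2 (edgeR adjusted p = 0.184, DESeq2 adjusted p = 0.0148). Over its alternatives the adjusted p of BCL3 ranged from 0.0148 to 0.414. NKRF, a repressor of NF-kappa-B target genes, was at 47.3, 45.3 and 52.7 CPM in NC-shRNA and at 33.5, 17.2 and 11.4 CPM in PRMT5-shRNA libraries. It was lower in all 3 PRMT5-shRNA libraries, which differed widely among themselves, with a difference of -1.23 in log2 (edgeR adjusted p = 0.272). RNF11, part of the A20 complex, was at 38.9, 19.2 and 33.7 CPM against 18.2, 18.0 and 18.6 CPM. NC-shRNA replicate 2 was almost at the PRMT5-shRNA level, and the log2 fold change was -0.74 (edgeR adjusted p = 0.302). OTUD7B, a deubiquitinase, differed by 0.16 in log2 (edgeR adjusted p = 0.380). TNIP1, a partner of A20 and the list's gene with the highest FPKM, was at 215 ± 8.02 CPM (SD, n = 3) against 214 ± 17.1 CPM (SD, n = 3).

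All 26 enzymes and coactivators that act on RELA were tested, with a median of 0.02, 2 higher and 0 lower at an unadjusted p under 0.05. PPM1D (WIP1), a phosphatase known to act on RELA, was at 27.0, 26.6 and 28.6 CPM in NC-shRNA and at 33.2, 32.0 and 34.5 CPM in PRMT5-shRNA libraries. The groups did not overlap, with a difference of 0.28 in log2 (edgeR adjusted p = 0.248). NCOA3, a coactivator, was at 109, 125 and 138 CPM against 142, 143 and 167 CPM, with a difference of 0.28 in log2 (edgeR adjusted p = 0.345). HDAC1, the list's gene with the highest FPKM, was at 131 ± 6.40 CPM (SD, n = 3) against 130 ± 13.8 CPM (SD, n = 3).

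Of the 60 known transcriptional targets 53 were tested, with a median of 0.02, 4 higher and 4 lower at an unadjusted p under 0.05. CXCL1, a neutrophil-attracting chemokine and the list's gene with the highest FPKM, was at 159, 152 and 149 CPM in NC-shRNA and at 168, 182 and 184 CPM in PRMT5-shRNA libraries. It did not overlap, with a difference of 0.21 in log2 (edgeR adjusted p = 0.265). JUNB, an AP-1 subunit, was at 56.7, 57.6 and 58.2 CPM against 72.6, 67.9 and 69.8 CPM. Its groups were apart by more than their spread, with a difference of 0.29 in log2 (edgeR adjusted p = 0.185). PLAU, the urokinase gene, was at 2.06, 3.26 and 3.07 CPM against 4.45, 5.38 and 5.51 CPM, with a difference of 0.87 in log2 (edgeR adjusted p = 0.218, DESeq2 adjusted p = 0.0385). Over its alternatives the adjusted p of PLAU ranged from 0.0385 to 0.467. CCL2, a monocyte chemokine, had between 6 and 45 counts per library and a difference of 1.50 in log2 (edgeR adjusted p = 0.364).

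Lower values were seen for XIAP, an inhibitor of caspases, at 36.8, 43.5 and 14.4 CPM in NC-shRNA and at 13.2, 12.2 and 12.2 CPM in PRMT5-shRNA libraries. NC-shRNA replicate 3, the library in which RELA was low, lay near the PRMT5-shRNA libraries. The log2 fold change of XIAP was -1.34 (edgeR adjusted p = 0.253), and without NC-shRNA replicate 3 it was -1.68 (edgeR adjusted p = 0.0171). Over the alternatives of XIAP the adjusted p ranged from 0.0023 to 0.499. SAA1, an acute-phase protein, was at 10.2 ± 0.905 CPM (SD over 3 libraries) against 8.08 ± 0.143 CPM, with a difference of -0.33 in log2 (edgeR adjusted p = 0.315).

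**Figure D5:**
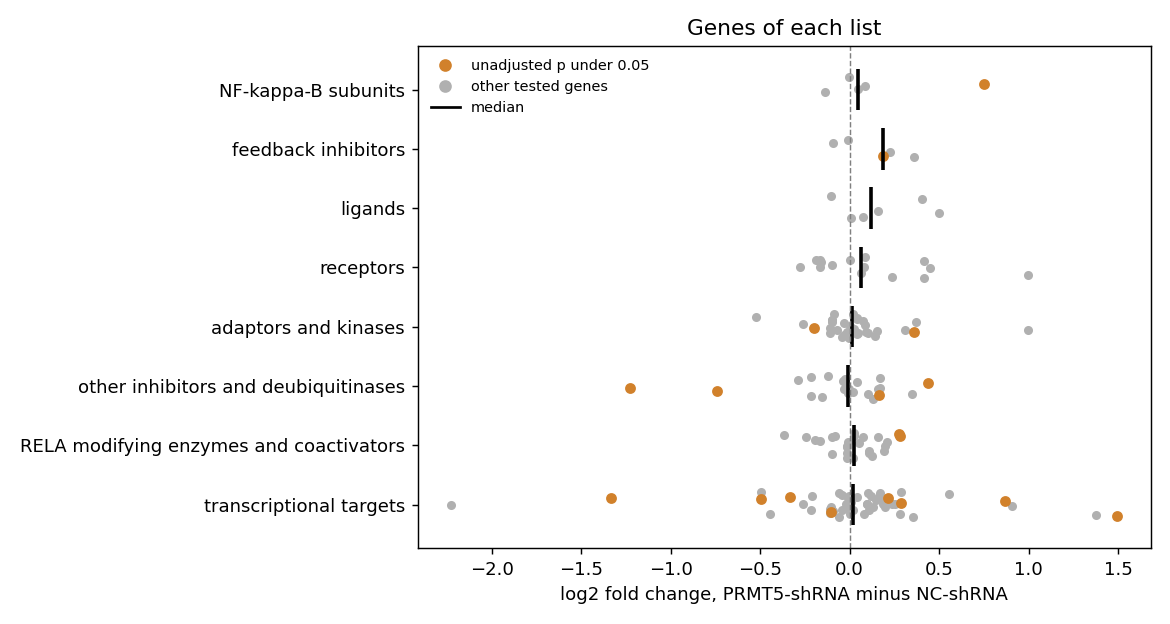
Log2 fold change of PRMT5-shRNA against NC-shRNA (x axis) for every tested gene of the members and of 6 pathway lists, with an unadjusted edgeR p under 0.05 in orange, other genes in grey and medians as black lines. List medians lie between -0.01 and 0.19, and the lowest orange points are XIAP at -1.34 and NKRF at -1.23.

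Markers of the line and of other cell types were read in the same libraries. The 6 epithelial markers all had a count in each library and summed to 1879, 1795 and 1753 CPM in NC-shRNA and to 1591, 1650 and 1523 CPM in PRMT5-shRNA libraries, led by KRT18 on the FPKM scale. The sum was lower in every PRMT5-shRNA library. EPCAM and CDH1 averaged only 1.36 and 1.20 CPM, so the sum is nearly all keratins, with KRT8 highest in CPM. The 4 lung adenocarcinoma lineage markers (NKX2-1, NAPSA, SFTPB and SFTPC) summed to under 1 CPM in each library, so the markers that go with the adenocarcinoma label were at or near 0. CDKN2A, which NCI-H460 is known to have lost, was listed at 28.8, 14.2 and 32.0 CPM in NC-shRNA and at 39.4, 31.4 and 33.1 CPM in PRMT5-shRNA libraries. CDKN2B-AS1 and AL359922.1 overlap CDKN2A on the other strand.

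Of the 18 leukocyte markers, which include cells where REL is abundant, between 7 and 11 had counts in a library. They summed to 17.7, 22.5 and 18.3 CPM in NC-shRNA and to 16.7, 19.8 and 17.1 CPM in PRMT5-shRNA libraries, led by CD68 on the FPKM scale. The T-cell genes CD3D, CD3E and CD2 and the B-cell gene MS4A1 were at 0 in all 6 libraries, and PTPRC was at 0 in NC-shRNA and at 8, 10 and 0 counts in PRMT5-shRNA libraries. The 10 fibroblast markers summed to 150, 131 and 128 CPM in NC-shRNA and to 142, 120 and 135 CPM in PRMT5-shRNA libraries, led by DCN, with COL1A2 and PDGFRA at 0 in every library. Both sums overlapped between the groups. Within the fibroblast list, COL3A1 was at 7.46, 7.66 and 8.72 CPM in NC-shRNA and at 15.5, 12.7 and 15.5 CPM in PRMT5-shRNA libraries (edgeR adjusted p = 0.110). PDGFRB averaged 3.90 CPM in NC-shRNA and 5.80 CPM in PRMT5-shRNA libraries (edgeR adjusted p = 0.231). Both were without overlap, and both were singled out after their values were seen. DCN, the most abundant of the list, went the other way by its mean, with overlap. It was at 112, 93.0 and 85.5 CPM in NC-shRNA and at 89.9, 73.2 and 82.8 CPM in PRMT5-shRNA libraries. Of the 7 tested fibroblast markers, 6 had a log2 fold change above 0.

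The 12 endothelial markers summed to 87.3, 87.8 and 80.4 CPM in NC-shRNA and to 82.0, 84.8 and 86.9 CPM in PRMT5-shRNA libraries, led by ESAM on the FPKM scale. Between 6 and 8 of them had counts in an NC-shRNA library and between 9 and 12 in a PRMT5-shRNA library. VWF was without a count in NC-shRNA and had 128, 105 and 122 counts in PRMT5-shRNA libraries, through which alone it passed the filter on low counts. KDR was at 0 in NC-shRNA and at 12, 22 and 26 counts in PRMT5-shRNA libraries, and it too passed the filter through these alone. PECAM1 had 30, 5 and 8 counts against 104, 100 and 109 counts. ESAM, the most abundant of the list, went the other way without overlap, at 51.5, 49.6 and 45.3 CPM in NC-shRNA and at 40.9, 41.3 and 42.2 CPM in PRMT5-shRNA libraries (edgeR adjusted p = 0.293). CDH5, like VWF, KDR and PECAM1, was higher without overlap, at 9.70, 10.8 and 9.61 CPM in NC-shRNA and at 11.7, 11.5 and 14.0 CPM in PRMT5-shRNA libraries. VWF, KDR, PECAM1 and CDH5 were singled out after their values were seen. These 4 genes, like COL3A1, PDGFRB, NFKB1 and TNFAIP3, were higher in all 3 PRMT5-shRNA libraries without overlap, as were 11.0% of all genes tested. REL was above every NC-shRNA library in 2 of 3 by CPM and in 3 of 3 by FPKM. The part of these markers in the values of NFKB1, REL and TNFAIP3 was not tested. At an unadjusted p under 0.05 in edgeR, 4 of 9 tested endothelial markers were higher and 1 lower, and 2 of 7 fibroblast markers were higher. At this threshold 1 of 6 epithelial markers was lower and 0 of 7 leukocyte markers passed. Of all genes tested, 6.54% were higher and 6.29% lower. At an adjusted p under 0.05 edgeR called 1 of the 9 tested endothelial markers (edgeR adjusted p = 0.0341) and 0.0690% of all genes tested. VWF and KDR passed the filter through PRMT5-shRNA libraries alone, and PECAM1 had few counts in NC-shRNA. The endothelial counts are therefore descriptions and not a test.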

How the data were processed

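RNA-seq libraries of NCI-H460 cells (3 NC-shRNA, 3 PRMT5-shRNA) were analysed. Per the submitters' processing notes, the authors used cutadapt 1.9, HISAT2 2.0.4 and StringTie 1.3.4d on GRCh38 (the methods print the mouse build name GRCm38). The authors deposited estimated counts per gene, not normalized, and FPKM values, scaled for length and depth. Estimated counts were whole numbers, so rounding changed nothing. Low counts gathered at 4 (1214 to 1319 genes per library), so a count is not a single fragment.

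Counts were filtered with filterByExpr, scaled by TMM and tested with edgeR 4.0.16 (R 4.3.3) quasi-likelihood fits and Benjamini-Hochberg adjustment over 20295 of 58825 genes. The fits were tested on simulated data. Alternatives were other scalings and filters, DESeq2 1.42.0, limma 3.58.1 on log2(FPKM + 1) and log2(FPKM + 0.1) with a minimum mean of 0.5, counts divided by 4, a fit with a replicate block, and fits without each library. Positions and overlaps came from GENCODE release 29. No pair of libraries agreed within sampling noise (chi-square per degree of freedom at least 41.1). Intervals are at 95%. Members and lists were chosen with earlier results of these data known. Genes named are all members, PRMT5, up to 6 per list with an unadjusted p under 0.05 and no overlap (smallest p), each list's highest FPKM gene and the 5 genes most like RELA. Of the list symbols, 2 were matched by gene ID and 1, SOD2, was on 2 rows, of which the one with more counts was used.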

Additional observations from a re-analysis of the deposited data

How the results depend on the processing

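Members called at an adjusted p under 0.05 numbered 0 under each alternative run. At an unadjusted p under 0.05 the member count of 2 became 1 in DESeq2, 4 in limma on log2(FPKM + 1) without a filter, and 0 to 2 with 1 library left out. Members that did not overlap and were higher numbered 2 to 4 with 1 library left out, and 3 with library totals and in each limma fit. No share of all genes under the same settings stands beside these counts, so they are descriptions only. The 14 genes called became 413 in DESeq2 (241 higher, 172 lower), 5 in limma without a filter and 8 to 25 with 1 library left out.

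With the replicate block, PRMT5 was at -1.62 in log2 (edgeR adjusted p = 0.144), 0 genes were called, 0 members passed an unadjusted p of 0.05 and RELA was at 0.04. The numbers did not pair the libraries, since deviations of same-numbered libraries correlated at 0.02, -0.03 and 0.01 for replicates 1, 2 and 3 across genes, which are not independent replicates.

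RELA was at 0.05 with library totals, at 0.09 in limma on log2(FPKM + 1) with or without a filter, at 0.11 on log2(FPKM + 0.1), and from -0.26 to 0.16 with 1 library left out. NFKBIA was at 0.04 with library totals and 0.05 in each limma fit, and from -0.02 to 0.0090 with 1 library left out. With 1 library left out NFKB2 ranged from -0.0044 to 0.08, NFKBIE from -0.20 to 0.08, IL18 from -0.02 to 0.19, TNIP1 from -0.04 to 0.06 and HDAC1 from -0.10 to 0.06. TNIP1 was at 0.04 and HDAC1 at 0.03 with library totals, and in each limma fit TNIP1 was at 0.05 and HDAC1 at 0.04. Library totals moved the median log2 fold change of all genes from 0.01 to 0.06. For these reversals the cause was not tested.

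The pathway lists' 9 higher and 7 lower genes became 20 and 4 with library totals and 17 and 4 in limma on log2(FPKM + 1) and on log2(FPKM + 0.1), 19 were higher in limma without a filter, and they numbered 5 to 12 and 4 to 8 with 1 library left out. CCL2 fell under the FPKM minimum and was not fitted there. No share of all genes under the same settings stands beside these counts of pathway genes. Sums per kilobase were compared as CPM after seeing the data. Depth limits genes with few counts, such as CCL2 with 6 to 45 per library.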
